A study of Mus musculus with 48 samples.

Results

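The nuclear receptor genes Nr1d1 (REV-ERB alpha), Nr1d2 (REV-ERB beta) and Rora (ROR alpha) were followed through the day in mouse kidney. They were chosen by symbol as the REV-ERB repressors and the ROR activator of the circadian clock, and all 3 were found among the 12423 genes listed in both assays and among the 11863 genes tested. Kidneys came from male C57BL/6JRj mice of 11 to 12 weeks kept under light and dark phases of 12 h each and killed every 2 h from ZT0 (lights on) to ZT22. The paper states that collection ran over 2 daily cycles, and the labels give no cycle for a pool. Each of the 12 timepoints had 2 pools of kidney lysate from 2 mice each, with no treatment or genetic change in any group. Each of the 24 pools gave 1 RNA-seq library, which measures transcript abundance, and 1 RPF-seq library, which sequences the ribosome-protected mRNA fragments and so measures translation. A pool averages 2 animals, so the spread between pools is smaller than that between mice, and the whole kidney does not tell fewer cells of a type from less RNA per cell. The liver samples of the study were not analysed here.

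REV-ERB and ROR proteins recognise the same DNA element, the ROR response element (RORE), an AGGTCA core with an A/T-rich 5′ flank. A REV-ERB protein bound there recruits the NCoR and HDAC3 corepressor complex and silences transcription, whereas a ROR protein recruits coactivators. The best known target is Arntl, which encodes BMAL1, and BMAL1 with CLOCK in turn activates the REV-ERB genes through E-boxes, which closes a feedback loop of the clock. REV-ERB proteins bind heme and are short-lived.

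The element that the receptors share is shown first, because the daily profiles of the genes that carry it are set beside those of the receptors further on. The promoter windows are RefSeq sequences of GRCm38.p6, from 250 bases before to 50 bases after a transcription start. All 3 receptor genes and 9 of the 11 genes of a list of RORE target genes had such a window. The 9-base word AGTAGGTCA, searched on both strands, was present in 0.192% of all 32851 windows and in the windows of 3 of these 9 target genes, Arntl, Nfil3 and Fabp7. The shorter word TAGGTCA, which lies inside it, was present in 2.61% of all windows and in those of 4 of the 9, the fourth being G6pc. The list was made of genes known as targets of this element, so the higher share in it is no test of the element. In the sequences below, of 30 bases each, the capitals mark the word found, and each is written on the strand on which the word reads as given.
Arntl chr7:113207529-113207558 (+): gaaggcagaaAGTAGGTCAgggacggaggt
Nfil3 chr13:52981032-52981061 (+): agatgtgtgttAGTAGGTCAgttccgagcg
Fabp7 chr10:57784742-57784771 (-): tgggttagcggAGTAGGTCAagatcctccc
G6pc chr11:101367651-101367680 (-): ggattcagtctgTAGGTCAatccagccctg

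None of the 3 receptor windows held TAGGTCA. The bare core AGGTCA, found in 16.3% of all windows, was in the Nr1d2 window. The E-box word CACGTG, found in 7.15% of all windows, was in none of the 3 receptor windows. The variant AACGTG, found in 4.68% of all windows, was in that of Nr1d1. Both words are shown because they are the only ones of the 5 searched that the receptor windows held, and a match describes these letters and not a bound site.
Nr1d2 chr14:18239166-18239195 (-): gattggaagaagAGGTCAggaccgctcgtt
Nr1d1 chr11:98775388-98775417 (-): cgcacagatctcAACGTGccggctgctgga

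In the GENCODE annotation of GRCm38, Nr1d1 (ENSMUSG00000020889) spans chr11:98767932-98775333 on the minus strand with a coding sequence of 1848 bases. Nr1d2 (ENSMUSG00000021775) spans chr14:18204054-18239127 on the minus strand with a longest coding sequence of 1731 bases, and Rora (ENSMUSG00000032238) spans chr9:68653786-69388246 on the plus strand with 1572 bases. The values are RPKM on coding sequences (reads scaled by coding length and library size, after upper quantile scaling by the authors), so levels can be compared between the genes per length. Thra, which encodes thyroid hormone receptor alpha, ends on the opposite strand inside Nr1d1 and covers 200 of its 1848 coding bases. Whether reads were counted by strand is not given in the sources used here. Thra itself peaked at ZT3.25 in RNA-seq with a fitted fold of 1.60, against the 21.7-fold rhythm of Nr1d1 described next, and its part in the Nr1d1 values was not tested.

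The relative depth of the libraries, read from the steps between low RPKM values, ran from 0.598 to 2.04 (RNA-seq) and from 0.701 to 1.58 (RPF-seq). Light-phase libraries were deeper (medians 1.14 against 0.812 in RNA-seq and 1.18 against 0.91 in RPF-seq). By these steps, about 25 reads lay behind the lowest Nr1d1 value in RNA-seq and about 51 behind the lowest in RPF-seq, both at ZT20, whereas Nr1d2 had at least 287 and 172 and Rora at least 386 and 357. All 10 kidney markers on a list were present in both assays, with summed levels of 44382 to 71521 RPKM in RNA-seq. Of 6 hepatocyte markers 5 were listed, with sums of 221 to 587 RPKM, and of 5 adrenal cortex markers none was listed in either assay. Of the 5 hepatocyte markers listed, 3 passed the rhythm rule given below in RNA-seq and 2 in RPF-seq. Of all genes tested, 10.2% and 7.58% passed it. In the ratio of RPF to RNA (TE, defined below), 4 of the 5 hepatocyte markers passed the 24-h test, with a median fold of 3.04. There 17.1% of all genes passed, with a median fold of 1.19. Alb, for example, had its fitted peak at ZT23.8 in RNA-seq and at ZT15.6 in RPF-seq. Leukocyte markers, of which 2 of 5 were listed in both assays, summed to 4.72 to 9.81 RPKM in RNA-seq. Adipocyte markers, of which 3 of 5 were listed in both, summed to 0.532 to 9.03 RPKM, and Lep was listed in neither assay. Their sums were higher in the light phase, like Nr1d1, with medians of 3.31 against 1.45 RPKM in RNA-seq and 9.35 against 3.90 RPKM in RPF-seq. Both adipocyte markers tested, Adipoq and Cidec, passed the rhythm rule given below in both assays, with RNA peaks at ZT3.95 ± 1.0 h and ZT4.94 ± 1.2 h (SE). The part of cells with the hepatocyte or adipocyte markers in the receptor profiles and in their TE was not tested. At ZT10 and ZT12, replicate 2 had lower Nr1d1 RNA than replicate 1 by a factor of over 2. The Nr1d1 RNA fold, the time from the Nr1d1 to the Nr1d2 RNA peak and the Rora rhythm tests are also given without these pools.

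Nr1d1 had a steep daily rhythm in transcript abundance. In RNA-seq the pools of replicate 1 and replicate 2 held 6.14 and 5.88 RPKM at ZT0, 15.0 and 18.9 at ZT2, 32.8 and 33.6 at ZT4, and 52.5 and 45.7 at ZT6. The level was highest at ZT8, with 53.3 and 60.1 RPKM. It was 40.4 and 18.8 RPKM at ZT10, 30.8 and 13.7 at ZT12, and 18.4 and 14.4 at ZT14. These are the times at which replicate 2 lay lowest against replicate 1, by a ratio of 2.15 at ZT10 and 2.25 at ZT12, while the median ratio between the pools of a time was 1.26. The night values fell to 6.52 and 5.21 RPKM at ZT16, 2.11 and 2.26 at ZT18, and a minimum of 1.31 and 1.70 at ZT20, before 4.35 and 5.74 at ZT22. The highest timepoint mean was 37.6 times the lowest, and both pools of ZT20 lay below every pool of any other time.

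Footprints on Nr1d1 followed the same course. In RPF-seq the 2 pools held 5.34 and 7.57 RPKM at ZT0, 22.3 and 23.2 at ZT2, 39.0 and 43.8 at ZT4, and 57.7 and 53.5 at ZT6. The highest values were 63.9 and 61.4 RPKM at ZT8. They were followed by 46.6 and 32.3 RPKM at ZT10, 36.5 and 28.4 at ZT12, and 21.9 and 18 at ZT14. The pools of ZT10 and ZT12 thus lay closer to each other in RPF-seq than in RNA-seq. The level was 8.85 and 8.46 RPKM at ZT16, 2.79 and 2.07 at ZT18, 1.26 and 3.97 at ZT20, and 5.66 and 7.44 at ZT22. The 2 pools of ZT20 differed by a factor of 3.14, so the order of ZT18 and ZT20 as the lowest time could not be told from this spread.

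Nr1d2 rose later and less steeply. Its RNA-seq pools held 20.2 and 21.3 RPKM at ZT0, 28.6 and 24.8 at ZT2, 43.7 and 59.6 at ZT4, and 56.9 and 58.2 at ZT6. They reached 68.9 and 76.9 RPKM at ZT8, 85.1 and 104 at ZT10, and 81.6 and 97.6 at ZT12. The pools of ZT10 and ZT12 overlapped, and both lay above every other pool of the series. The level then was 59.5 and 68.6 RPKM at ZT14, 50.9 and 43.3 at ZT16, 36.0 and 30.1 at ZT18, 21.2 and 16.9 at ZT20, and 19.7 and 18.7 at ZT22. The highest timepoint mean was 4.97 times the lowest.

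In RPF-seq the Nr1d2 pools held 8.66 and 7.65 RPKM at ZT0, 10.6 and 10.3 at ZT2, 20.2 and 23.2 at ZT4, and 29.5 and 27.0 at ZT6. They held 38.2 and 35.2 RPKM at ZT8, 37.9 and 42.7 at ZT10, and 46.6 and 43.1 at ZT12. Both pools of ZT12 exceeded every other pool. The values were 34.8 and 29.7 RPKM at ZT14, 26.1 and 16.04 at ZT16, 14.8 and 13.7 at ZT18, 7.83 and 6.40 at ZT20, and 7.86 and 6.93 at ZT22. The footprint profile spanned a factor of 6.30 between timepoint means, and the pools of ZT20, ZT22 and ZT0 overlapped at its floor.

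Rora varied little over the day. Timepoint means in RNA-seq, each with its SD over 2 pools, were 27.8 ± 0.67 RPKM at ZT0, 33.1 ± 1.1 at ZT2, 29.5 ± 2.3 at ZT4, 29.9 ± 3.6 at ZT6, 31.7 ± 2.9 at ZT8 and 31.7 ± 9.8 at ZT10. They were 29.98 ± 0.38 RPKM at ZT12, 26.4 ± 2.8 at ZT14, 27.7 ± 0.61 at ZT16, 31.2 ± 4.0 at ZT18, 25.4 ± 0.54 at ZT20 and 26.9 ± 3.1 at ZT22. When the 12 timepoints were ordered by mean, all 11 neighbouring pairs overlapped between pools. In RPF-seq the means were 12.2 ± 0.41 RPKM at ZT0, 14.4 ± 2.2 at ZT2, 14.7 ± 0.31 at ZT4, 13.5 ± 0.13 at ZT6, 15.3 ± 0.74 at ZT8 and 16.6 ± 3.0 at ZT10. They were 16.4 ± 0.81 RPKM at ZT12, 15.5 ± 1.8 at ZT14, 15.2 ± 0.48 at ZT16, 15.3 ± 2.1 at ZT18, 15.4 ± 1.1 at ZT20 and 14.9 ± 0.034 at ZT22. Here 9 of the 11 neighbouring pairs overlapped, and only the pools of ZT0 lay below all others. The same ordering gave 6 overlapping pairs of 11 for Nr1d1 in RNA-seq and 4 in RPF-seq, and 4 for Nr1d2 in either assay.

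**Figure D1:**
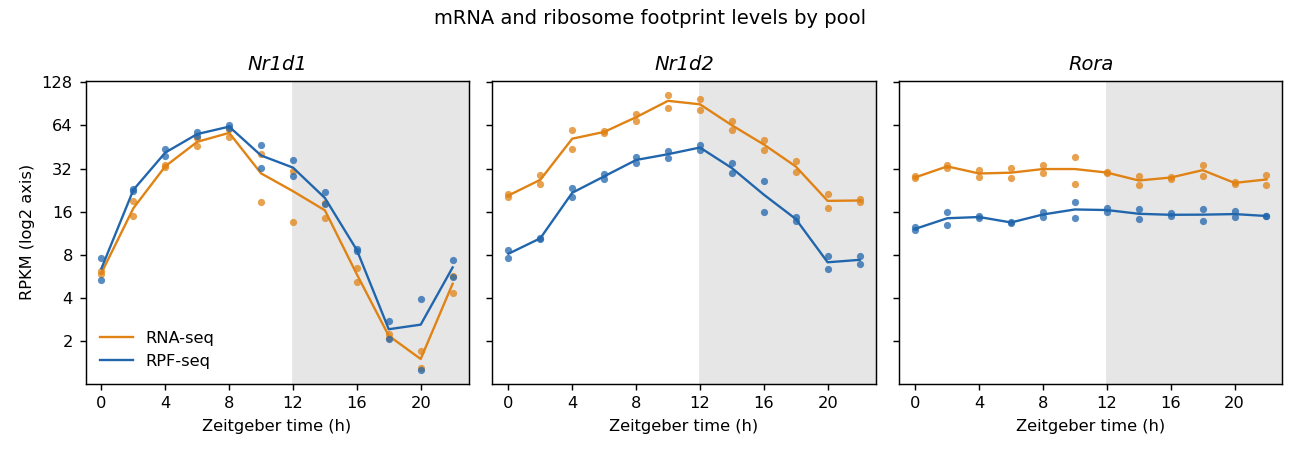
RPKM (log2 axis) of Nr1d1, Nr1d2 and Rora against zeitgeber time (h), in RNA-seq (orange) and RPF-seq (blue). Points are single pools, 2 per time, lines join their means and grey marks the dark phase. Mean Nr1d1 footprints lie above mean RNA at every time, and both peak at ZT8 (62.6 and 56.7 RPKM), while the Nr1d2 and Rora footprints lie below their RNA at every time.

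The question of rhythmicity was put to all genes with a 24-h cosine fitted by limma to log2(RPKM + 0.1), and a gene was called rhythmic at a Benjamini-Hochberg FDR under 0.05 with a fitted peak-to-trough fold of at least 1.5. By this rule 2 of the 3 receptor genes were rhythmic in RNA-seq, where 10.2% of all tested genes were called, and 2 of 3 in RPF-seq, where 7.58% were called. In both assays they were Nr1d1 and Nr1d2, and 4.25% of all tested genes were called in both assays. Nr1d1 had a fitted fold of 21.7 in RNA-seq (log2 4.44 ± 0.27 SE, limma adjusted p = 7.9e-12) and of 20.9 in RPF-seq (log2 4.38 ± 0.28 SE, adjusted p = 4.1e-11). These were the fifth largest folds of the 11863 genes tested in either assay. A fitted fold of at least 10 was reached by 5 genes (0.0421%) in RNA-seq and by 6 (0.0506%) in RPF-seq. Nr1d2 had a fitted fold of 4.84 in RNA-seq (log2 2.28 ± 0.11 SE, limma adjusted p = 5.6e-14) and of 6.20 in RPF-seq (log2 2.63 ± 0.12 SE, adjusted p = 1.3e-13), which placed it at ranks 17 and 12. Without 1 replicate series the Nr1d1 fold ran from 18.03 to 27.1 in RNA-seq and from 16.2 to 27.5 in RPF-seq. The fold of low values depends on the pseudocount, and with 1 RPKM in place of 0.1 it was 15.9 and 16.1. Without replicate 2 of ZT10 or of ZT12 the RNA fold was 24.5 or 22.5.

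Rora missed the rule in both assays. The fitted fold was 1.14 in RNA-seq (log2 0.19 ± 0.09 SE, limma adjusted p = 0.18) and 1.17 in RPF-seq (log2 0.23 ± 0.08 SE, adjusted p = 0.061), beside a median of 1.20 and 1.18 over all genes tested. Without replicate 2 of ZT10 the limma adjusted p for Rora was 0.070 in RNA-seq and 0.051 in RPF-seq. Without replicate 2 of ZT12 it was 0.18 and 0.11. The failure of the test does not show that Rora RNA was constant, but its fitted size lay far below those of the REV-ERB genes. The coefficient of variation over the 24 libraries was 12.1% for Rora RNA, 53.9% for Nr1d2 and 91.3% for Nr1d1.

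The fitted peak of Nr1d1 lay at ZT7.52 ± 0.23 h (SE) in RNA-seq and at ZT7.69 ± 0.24 h in RPF-seq. That of Nr1d2 lay at ZT10.2 ± 0.18 h and at ZT10.2 ± 0.17 h. Nr1d2 thus peaked 2.68 h after Nr1d1 in RNA-seq (95% interval 2.00 to 3.36 h) and 2.56 h after it in RPF-seq (1.91 to 3.21 h). The delay was present in each replicate series taken alone, at 2.55 and 2.91 h in RNA-seq and 2.56 and 2.62 h in RPF-seq. Without replicate 2 of ZT10 or of ZT12 it was 2.58 or 2.55 h in RNA-seq. It was longer, 3.98 and 3.49 h, when a 12-h harmonic was added to the curve, which moved the Nr1d1 peak to ZT6.68 in RNA-seq and to ZT7.23 in RPF-seq. The harmonic also moved the Nr1d2 peak later, to ZT10.66 in RNA-seq and to ZT10.72 in RPF-seq. None of the 3 genes passed the limma test of that 12-h component at an FDR under 0.05, where 0.598% of genes passed in RNA-seq and 0.7% in RPF-seq. Before adjustment, 1 gene in each assay, Nr1d1, was under 0.05 (limma, 0.042 in RNA-seq and 0.028 in RPF-seq, adjusted 0.28 and 0.26).

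The footprint peak followed the RNA peak of the same gene by 0.17 h for Nr1d1 (95% interval -0.18 to 0.51 h) and by 0.05 h for Nr1d2 (-0.26 to 0.36 h). These intervals include 0 and place any delay between transcript and translation below the 2 h between samplings. For Rora the fitted peaks were ZT6.79 ± 1.8 h and ZT13.2 ± 1.3 h, but neither curve passed the rhythm test and the times are given only as values.

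Translation efficiency (TE) was the ratio of RPF to RNA RPKM of the same pool. RNA-seq and RPF-seq were scaled separately, so TE is relative, and its median over all genes tested was 0.956. Nr1d1 was translated more efficiently than its partners, with a geometric mean TE of 1.28, against 0.436 for Nr1d2 and 0.512 for Rora. These values stood at percentiles 68.9, 14.1 and 17.8 of the genes tested, counted on the ratio of mean levels. TE of Nr1d1 exceeded 1 in 21 of 24 pools, and that of Nr1d2 and of Rora in 0 of 24.

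TE of Nr1d1 was 2.48 times that of Rora (mean log2 difference 1.31 ± 0.16, SD over 12 timepoints) and was higher in 24 of 24 pools. It was 2.91 times that of Nr1d2 (1.54 ± 0.26), again in 24 of 24 pools. In both comparisons the exact two-sided sign-flip permutation test over the 12 timepoint means gave p = 0.00049, the smallest that 12 timepoints allow, or 0.00073 after Benjamini-Hochberg adjustment over the 3 pairs. TE of Nr1d2 was 0.853 times that of Rora (-0.23 ± 0.22) and lower in 20 of 24 pools (exact sign-flip permutation test, adjusted p = 0.0034). That last difference rested on replicate 2. In replicate 1 alone it was -0.13 with an adjusted p of 0.18 in the exact permutation test, and in replicate 2 alone it was -0.33.

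Over the day, TE of Nr1d1 varied between pools more than between times. It ran from 0.870 to 2.33, and both extremes were single pools whose partner of the same time was at 1.29 (ZT0) and 0.962 (ZT20). No 24-h term was found in it by limma (fitted fold 1.15, adjusted p = 0.67). Nr1d2 and Rora passed the TE test, 2 of 3 receptor genes where 17.1% of all genes passed. The size was small, a fitted fold of 1.28 with a peak at ZT10.5 ± 1.1 h for Nr1d2 (limma adjusted p = 0.037) and of 1.24 with a peak at ZT15.7 ± 1.0 h for Rora (adjusted p = 0.035), beside a median of 1.19 over all genes. Timepoint means of Nr1d2 TE were 0.394 at ZT0, 0.426 at ZT4, 0.506 at ZT8, 0.427 at ZT10, 0.506 at ZT12 and 0.442 at ZT16. They ran from 0.374 ± 0.0063 (SD, n = 2) at ZT20 to 0.509 ± 0.11 at ZT14. Those of Rora TE ran from 0.434 ± 0.050 at ZT2 to 0.606 ± 0.030 at ZT20, with medians of 0.474 over the pools of ZT0 to ZT10 and 0.567 over those of ZT12 to ZT22. With the timepoints ordered by mean TE, all 11 neighbouring pairs overlapped between pools for Nr1d2 and likewise for Rora. Neither TE call held without replicate 1 or without replicate 2. The limma adjusted p was then 0.55 and 0.13 for Nr1d2, and 0.31 and 0.30 for Rora.

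**Figure D2:**
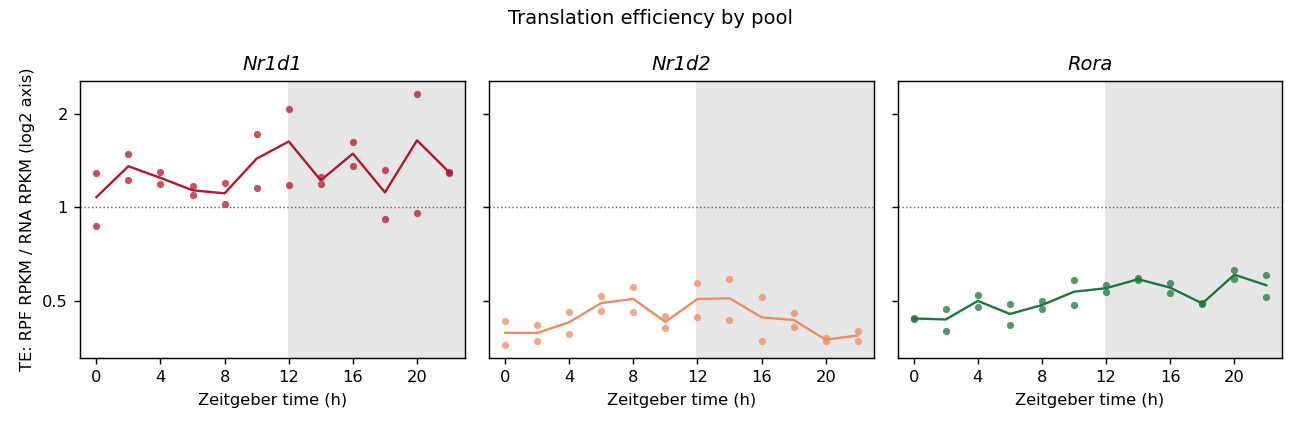
TE, the RPF over RNA ratio of RPKM (log2 axis), of Nr1d1, Nr1d2 and Rora against zeitgeber time (h). Points are single pools, lines join the means of 2 and the dotted line marks a TE of 1. Nr1d1 lies around 1.28 with scattered pools up to 2.33, and Nr1d2 and Rora stay under 0.63 in all pools.

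The difference in TE changed the order of the receptors between the assays. In RNA-seq, Nr1d2 averaged 49.7 RPKM over the 24 libraries, Rora 29.3 and Nr1d1 20.4. In RPF-seq, Nr1d1 averaged 25.1 RPKM, Nr1d2 22.7 and Rora 15.0. Nr1d1 RNA was above Nr1d2 RNA in 0 of 24 libraries, while Nr1d1 footprints were above Nr1d2 footprints in 10 of 24, and by timepoint mean at 4 of 12 times. The averages hide daily ranges far wider than these gaps, so the order depends on the hour.

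Nr1d1 made up 22.5% ± 1.2 (SD, n = 2) of REV-ERB RNA at ZT0, 46.0% ± 2.8 at ZT6, 19.9% ± 11 at ZT12 and 6.26% ± 1.0 at ZT18. Of the REV-ERB footprints it made up 43.9% ± 8.2 at ZT0, 68.5% ± 0.99 at ZT2, 66.3% ± 0.18 at ZT6, 41.9% ± 2.9 at ZT12 and 14.5% ± 2.0 at ZT18. Its share was above 60% in both pools from ZT2 to ZT8 in RPF-seq and in no library of RNA-seq. By footprints per length, Nr1d1 was the more translated repressor from ZT2 to ZT8, and Nr1d2 from ZT12 to ZT20.

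The balance of repressors against the activator was taken as the summed RPKM of Nr1d1 and Nr1d2 over that of Rora. In RNA-seq it was 0.964 ± 0.0024 (SD, n = 2) at ZT0, 2.86 ± 0.17 at ZT4, 4.09 ± 0.046 at ZT8, 3.73 ± 0.074 at ZT12, 1.91 ± 0.19 at ZT16 and 0.808 ± 0.091 at ZT20. In RPF-seq it was 1.20 ± 0.030 at ZT0, 4.29 ± 0.29 at ZT4, 6.50 ± 0.57 at ZT8, 4.72 ± 0.73 at ZT12, 1.96 ± 0.55 at ZT16 and 0.635 ± 0.10 at ZT20. By timepoint mean, the summed repressors were below Rora at ZT0, ZT20 and ZT22 in RNA-seq, and at ZT20 and ZT22 in footprints.

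The balance was higher in RPF-seq than in RNA-seq by a mean factor of 1.23 (log2 0.30 ± 0.36, SD over 12 timepoints), in 18 of 24 pools and by timepoint mean at 10 of 12 times (exact two-sided sign-flip permutation test, p = 0.020). The difference ran from -0.35 to 0.81 on the log2 scale between timepoints. A cosine through the log2 balance had a fold of 5.52 with its peak at ZT9.39 in RNA-seq, and a fold of 8.42 with its peak at ZT8.49 in RPF-seq.

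**Figure D3:**
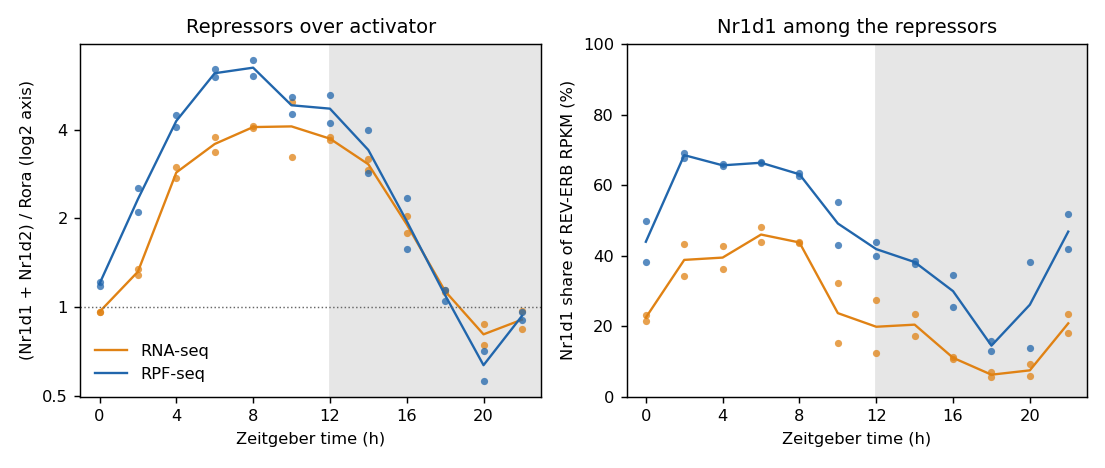
Left, the ratio of summed Nr1d1 and Nr1d2 RPKM to Rora RPKM (log2 axis). Right, the percentage of summed Nr1d1 and Nr1d2 RPKM that is Nr1d1. Both are set against zeitgeber time (h), with single pools as points and means of 2 as lines, RNA-seq in orange and RPF-seq in blue. The footprint balance reaches 6.50 at ZT8 against 4.09 in RNA, and both fall below 1 (dotted line) at ZT20.

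Rorb, a mainly neural ROR gene, was listed only in RNA-seq at a mean of 0.486 RPKM and was not tested.

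Of the list of 11 known RORE target genes, 10 were tested, and 8 were rhythmic in RNA-seq and 8 in RPF-seq, where the background was 10.2% and 7.58%. The median fitted fold of the 10 was 2.57 in RNA-seq and 2.76 in RPF-seq, against 1.20 and 1.18 over all genes. The largest RNA folds were those of Arntl (25.0, peak ZT22.5) and Npas2, a paralogue of Clock (24.9, ZT23.7). They were followed by Nfil3, which encodes a repressor of D-box genes (8.43, ZT21.5), and the clock repressor Cry1 (7.04, ZT18.5). Fabp7, which encodes a fatty acid binding protein, had a fold of 2.60 with a peak at ZT2.15, and Cdkn1a, which encodes the cell cycle inhibitor p21, a fold of 2.54 with a peak at ZT2.12. Insig2, a brake on sterol synthesis, and Apoc3, an apolipoprotein, did not pass (adjusted p 0.15 and 0.69 in RNA-seq by limma). All 8 rhythmic genes peaked in RNA-seq between ZT18.5 and ZT2.15, from the middle of the night to the first hours of light. Arntl and Cry1 passed the limma test of the 12-h component (adjusted p = 0.0033 and 0.046). With that harmonic added, the 8 peaks ran from ZT20.15 (Cry1) to ZT4.26 (Fabp7), and that of Arntl lay at ZT23.97. The 4 genes whose windows are printed above, Arntl, Nfil3, Fabp7 and G6pc, were among these 8. Their peaks by the 24-h cosine were at ZT22.5, ZT21.5, ZT2.15 and ZT20.0. The other rhythmic genes, Clock, Npas2, Cry1 and Cdkn1a, had windows without TAGGTCA, as had Insig2, which was not rhythmic. The word thus did not set the rhythmic genes of this list apart, and its part in their rhythm was not tested.

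All 10 genes of a list of clock genes driven by E-boxes and D-boxes were rhythmic in both assays, and their peaks lay between ZT10.5 and ZT14.7 in RNA-seq. The largest folds belonged to Dbp (42.1), a D-box activator, and Ciart (27.4), a repressor of CLOCK and BMAL1, with peaks at ZT10.5 and ZT10.7. Per2 (7.73), Per3 (6.09), Per1 (4.21) and Bhlhe41 (3.82), further repressors of the loop, came next. The earliest of these 10 peaks, that of Dbp at ZT10.5 ± 0.18 h (SE), came after that of Nr1d1 at ZT7.52 ± 0.23 h. It lay within the errors of that of Nr1d2 at ZT10.2 ± 0.18 h. With the 12-h harmonic added, Bhlhe41 (ZT9.53), Dbp (ZT9.72) and Ciart (ZT10.34) came before Nr1d2 (ZT10.66).

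**Figure D4:**
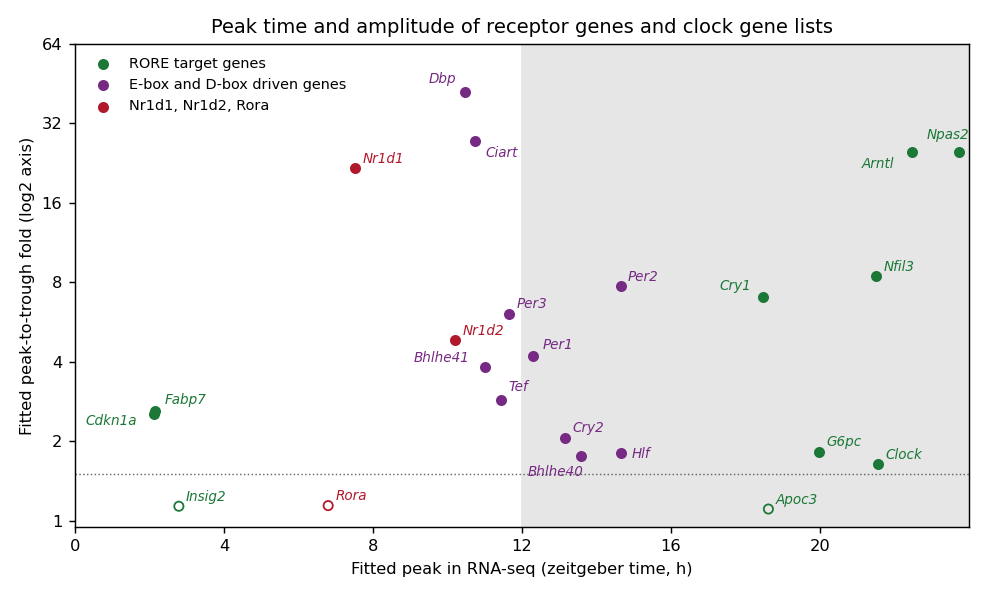
Fitted peak-to-trough fold (log2 axis) against fitted peak time (zeitgeber time, h) in RNA-seq for the receptor genes (red), RORE target genes (green) and E-box and D-box driven clock genes (purple). Filled points passed the rhythm rule, open points did not, the dotted line marks a fold of 1.5 and grey the dark phase. The filled green points lie from ZT18.5 on or by ZT2.15, and the purple points between ZT10.5 and ZT14.7, after Nr1d1.

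Genes for proteins that work with the receptors were described in the same way. Of 5 genes of the corepressor complex none was rhythmic by limma with the fold minimum in either assay. Ncor1 had folds of 1.13 and 1.15, and Hdac3, the deacetylase of the complex, had folds of 1.34 and 1.26, with adjusted p under the threshold in both but folds under 1.5. Counted without the fold minimum, 4 of 5 passed in RNA-seq and 3 of 5 in RPF-seq, where 48.6% and 30.9% of all genes passed. None of the 7 coactivator genes was rhythmic by limma with the fold minimum, and 3 passed in each assay without it. Ppargc1b came nearest, with a fold just under the minimum of 1.5 (limma adjusted p = 0.0020), and Ppargc1a, a coactivator of Arntl transcription with ROR alpha, had a fold of 1.05. Of 6 tested genes for kinases and ubiquitin ligases that act on REV-ERB proteins none was rhythmic with the fold minimum, and 2 in RNA-seq and 3 in RPF-seq passed without it. In TE, 1 of these 6 genes passed, Gsk3b, a kinase that stabilises REV-ERB alpha (fold 1.43, limma adjusted p = 0.0037). Of the corepressor genes 1 of 5 passed in TE, and of the coactivator genes 0 of 7. Of all genes tested 17.1% passed in TE.

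Profiles most like those of the receptors were sought by Pearson correlation of log2(RPKM + 0.1) over the 24 RNA-seq libraries, which share the 12 times and their depth. Closest to Nr1d1 were Calcoco1 (r = 0.95), Cep250 (0.94), Eml2 (0.92), Pnpla2 (0.92) and Pik3r4 (0.91), with fitted folds between 1.22 and 1.98, all far smaller than that of Nr1d1. In RPF-seq their r with Nr1d1 were lower, between 0.55 and 0.84. Among the most opposite to Nr1d1 were Snx6 (r = -0.95), Psmd5 (-0.95), Cand1 (-0.93) and Snx16 (-0.92), with fitted folds between 1.27 and 1.74. Their r in RPF-seq were weaker, between -0.70 and -0.53. Closest to Nr1d2 were Dbp (r = 0.96), Pnpla7 (0.93), Upp2 (0.91), Per3 (0.90) and Tef (0.88), and in RPF-seq the same 5 genes had r between 0.88 and 0.96 with it. Closest to Rora were Rac1 (0.81), Fkbp2 (0.81), Aldh9a1 (0.76), Dedd (0.74) and Aldh7a1 (0.74), whose r in RPF-seq were between 0.21 and 0.58. Among the receptors, Nr1d1 and Nr1d2 were correlated at 0.71 (RNA-seq) and 0.73 (RPF-seq), Nr1d1 and Rora at 0.42 and 0.09, and Nr1d2 and Rora at 0.27 and 0.36.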

How the data were processed

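The authors trimmed reads with Cutadapt, kept fragments of the expected size, mapped them with Bowtie2 2.2.1 and TopHat2 2.0.11 (GRCm38.p2, Ensembl annotation), counted those on coding sequences, scaled libraries by the upper quantile method of edgeR and deposited RPKM values, 1 per gene and library. Genes under a cutoff on low values had been left out by them. Upper quantile scaling hides any change in total mRNA or footprints over the day.

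From these RPKM values, genes with a median of at least 0.5 RPKM in both assays were tested on log2(RPKM + 0.1), a scale that understates changes of low genes, with limma 3.58.1 (R 4.3.3, eBayes with trend). Calls over all genes used Benjamini-Hochberg adjustment. Peak times and their intervals came from the cosine by the delta method. Pairs of members were compared by an exact sign-flip permutation test over timepoints, in Python 3.11.15. In data simulated for the purpose, most known rhythms of large fold were recovered in RNA-seq and RPF-seq. That check set no bar for rhythms of small fold or for TE. RNA and RPF libraries are paired because they come from 1 lysate pool. Their replicate differences correlated across genes at each of 12 timepoints (r 0.11 to 0.45). The labels name separate pools, so the limma p-values measure the spread between pools of mice around the fitted curve. Those of the sign-flip tests measure the spread over the 12 timepoint means, which includes change over the day.

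Reads behind a value were estimated from the steps of low RPKM values, where 50.0% to 92.7% of the 150 lowest genes of a library lay within 0.02 of a whole number of reads. The estimates are approximate and cover counting error only. The 3 genes, the gene lists and the tests were chosen with earlier results of these data known. The genes named were the 3 receptors, up to 6 rhythmic genes a list in order of fold with up to 3 others, and the 5 genes most like each receptor (also the 5 most opposite to Nr1d1). Some genes that this rule takes are not reported here, and list counts leave them out. Alternatives were pseudocounts, quantile normalisation, other minimums and thresholds, a 12-h harmonic, a replicate block, each replicate left out and an unpaired TE model.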

Additional observations from a re-analysis of the deposited data

Results flagged for a closer look

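The footprint profile differed from the RNA profile over the day, by the 24-h term in TE, for Nr1d2 (limma adjusted p = 0.03713, fitted TE fold 1.28) and for Rora (adjusted p = 0.03544, fitted TE fold 1.24). Both adjusted p lay just under the threshold, and 17.1% of all genes tested passed it. For Nr1d2 the unadjusted p was 0.0051 and for Rora 0.0047. In the unpaired model over the 48 libraries the adjusted p was 0.29 for Nr1d2 and 0.17 for Rora.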

How the results depend on the processing

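The calls of Nr1d1 and Nr1d2 as rhythmic, and of no 12-h component, held under every alternative run, the replicate block included (2 of 3 members in either assay). The number of members with a TE rhythm was 2 with the replicate block, 1 (Rora) with a pseudocount of 1 RPKM or with quantile normalisation, and 0 at an FDR under 0.01, with the 12-h harmonic added and in the unpaired model. Leaving out replicates gave 0 to 2, with 0 for either whole series. The Nr1d2 minus Nr1d1 peak difference was 2.68 h in RNA-seq and 2.56 h in RPF-seq with the replicate block, 3.98 and 3.49 h with the 12-h harmonic, and 2.55 to 2.91 h and 2.49 to 2.62 h with replicates left out. Mean log2 TE of Nr1d2 minus Rora was -0.33 to -0.13 with replicates left out, not past the threshold in replicate 1 alone. TE of Nr1d1 against either partner, and the balance, kept direction and call under all alternatives run. Without ZT10 or ZT12 replicate 2, left out after their values were seen, the Nr1d1 RNA fold was 24.5 and 22.5. The cause of these changes was not tested, beyond the smaller number of libraries in the series left alone. Replicate numbers mark no shared animal across times (mean correlation of replicate differences between times 0.029 in RNA-seq and 0.020 in RPF-seq over 66 pairs). Depth limits Nr1d1 at its trough.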
